A study of Mus musculus with 12 samples.

Results

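The genes described here are the mouse cytochrome P450s of families 2 and 3, measured by RNA sequencing of liver. They were taken as every gene whose symbol begins with Cyp2 or Cyp3 followed by a subfamily letter and a number, that is not marked as a pseudogene and that has a protein-coding transcript. This gave 57 genes of the 56065 in the deposited tables, 48 of family 2 and 9 of family 3, in 14 subfamilies. Of the 57, 41 carried enough reads to be tested.

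Cytochrome P450s are haem-containing monooxygenases of the endoplasmic reticulum that insert an oxygen atom into drugs, steroids, fatty acids and other lipophilic molecules, with electrons handed on by the reductase Por and by cytochrome b5. Families 2 and 3 are the largest drug-metabolising families of the liver, and in the mouse many of them lie in clusters of recent duplicates with near-identical sequences. The nuclear receptors CAR (Nr1i3) and PXR (Nr1i2) induce many of them, the pulse pattern of growth hormone gives several a strong female or male bias, and the clock-driven PAR bZIP factors Dbp, Tef and Hlf help to set their level over the day.

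The 12 libraries fell into 3 groups of 4, and all mice carried floxed alleles of AhR, the aryl hydrocarbon receptor. The labels name no Cre, so no deletion of AhR is stated for any group. CD mice ate a control diet in which fat gave 10% of the energy, with sucrose matched. MD mice ate a diet used to induce steatohepatitis, with 2% cholesterol and with 40% of its energy from fat and 20% from fructose, and were injected intraperitoneally with vehicle, 0.2% DMSO in saline, on 3 days of each week. MD+CA mice ate the diet of the MD group and received cinnabarinic acid, a tryptophan metabolite and AhR agonist, at 12 mg/kg on the same schedule. Feeding started at 8 weeks of age and went on for 20 weeks. Whether CD mice had injections, at what time of day livers were taken and whether each library is a separate mouse are not stated in the labels. If the libraries of a group share animals, the p-values measure technical spread only.

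Every library was labelled male, and the RNA went against that label. Xist, the transcript of the inactive X chromosome, lay between 619 and 947 CPM (counts scaled to a common library total, with TMM factors between libraries) in all 12 libraries. The 4 Y-linked genes examined, Ddx3y, Kdm5d, Uty and Eif2s3y, had no read in any library. Many of the P450s below differ between the sexes, so their levels are those of libraries with this pattern.

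Libraries held between 9089586 and 14492587 assigned reads, of which 0.84 to 1.81% fell on the 57 genes. The liver label matched the hepatocyte markers: all 10 were detected, Alb at 16609 to 45525 CPM. Of 16 genes listed as markers of kidney, lung and intestine, 10 had no read. Apoa4 (470 to 3486 CPM), Fabp2 (56.8 to 224 CPM) and Cela1 (5.99 to 14.2 CPM) of that list were read in every library. The rest of the list did not exceed 0.601 CPM. MD replicate 2 and MD+CA replicate 3 stood apart from the rest, with median rank correlations to the other libraries of 0.920 and 0.945 against 0.954 or more elsewhere. MD replicate 2 had the largest share of mitochondrial reads, 17.51%, and was the lowest MD library for 21 of the 41 tested P450s. MD+CA replicate 3 had the fewest reads and the smallest P450 share, and was the lowest MD+CA library for 19 of the 41. In bulk tissue, fewer cells of a type and less RNA per cell cannot be told apart.

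Reads of these genes are hard to assign, because duplicates share sequence. A 31-base word of a transcript was called unique when no transcript of another gene in the GENCODE vM21 set held it. The tested P450s had a median of 66.2% unique words, 9 of them had under 50%, and 10 had at least 90%. The pair Cyp2a5 and Cyp2a4 and the pair Cyp3a41a and Cyp3a41b carry the results below, and the letters that separate their members are shown here. The first set is the stretch from 250 bases before to 50 bases after the RefSeq start, build GRCm38.p6, on chromosome 7, chr7:26835089-26835388 (plus strand) for Cyp2a5 and chr7:26306942-26307241 (plus strand) for Cyp2a4. Capitals mark the bases that differ where the stretches align. The windows are offset by 1 base, so the first base of Cyp2a4 and the last of Cyp2a5 have no partner.
Cyp2a5: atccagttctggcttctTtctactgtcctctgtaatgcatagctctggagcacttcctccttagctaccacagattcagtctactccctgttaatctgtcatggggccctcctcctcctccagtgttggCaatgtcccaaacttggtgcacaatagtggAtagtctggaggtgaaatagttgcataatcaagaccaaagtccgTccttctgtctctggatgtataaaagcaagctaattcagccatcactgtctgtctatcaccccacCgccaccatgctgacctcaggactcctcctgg
Cyp2a4: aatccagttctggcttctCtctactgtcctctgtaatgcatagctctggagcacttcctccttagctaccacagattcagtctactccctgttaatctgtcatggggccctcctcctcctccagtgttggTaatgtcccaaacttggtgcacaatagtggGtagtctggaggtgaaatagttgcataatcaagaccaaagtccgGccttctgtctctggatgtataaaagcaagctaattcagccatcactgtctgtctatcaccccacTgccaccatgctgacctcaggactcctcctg
Over the aligned bases the stretches were 98.3% identical, with 5 mismatches. The coding sequences of the annotated transcripts, 1485 bases each, were 98.45% identical with 23 mismatches, and bases 596 to 655, counted from the first base of the start codon, hold several of them.
Cyp2a5 coding 596 to 655: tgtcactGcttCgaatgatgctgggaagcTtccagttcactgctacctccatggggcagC
Cyp2a4 coding 596 to 655: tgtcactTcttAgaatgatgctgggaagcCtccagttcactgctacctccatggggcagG
Cyp3a41a and Cyp3a41b are closer still. Their coding sequences of 1515 bases differed at 2 positions (99.87% identity), and the single differing base of bases 61 to 120 is shown in capitals.
Cyp3a41a coding 61 to 120: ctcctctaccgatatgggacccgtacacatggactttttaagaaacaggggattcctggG
Cyp3a41b coding 61 to 120: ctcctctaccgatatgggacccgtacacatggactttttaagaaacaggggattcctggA
Only 0.1% of the 31-base words of Cyp3a41a and 4.1% of those of Cyp3a41b were unique, against 41.5% for Cyp2a5 and 41.1% for Cyp2a4. The division of reads between the members of such a pair is an estimate of the quantification, and their sum does not depend on it.

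Per transcript length, Cyp2e1, which oxidises ethanol and paracetamol, was the most abundant of these P450s, with a mean of 2400 TPM (a share of transcripts, corrected for their length) over the 12 libraries. The female-biased Cyp3a41a followed at 1184 TPM, then the coumarin hydroxylase Cyp2a5 at 975 TPM, the arachidonic acid epoxygenase Cyp2j5 at 560 TPM and the steroid hydroxylase Cyp2a12 at 546 TPM. Next came Cyp2d26 (499 TPM), the testosterone hydroxylase Cyp2a4 (477 TPM), Cyp3a11 (390 TPM), a main PXR target and close counterpart of human CYP3A4, Cyp2c70 (375 TPM), which makes the muricholic acids of mouse bile, Cyp2c69 (363 TPM), Cyp2c40 (329 TPM) and Cyp2c68 (294 TPM). These 12 genes held 76.9% of the summed TPM of the 57. Cyp2e1 was above Cyp3a41a in all 12 libraries. From Cyp3a41a on, the order of each gene and the next was not the same in all libraries.

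In CD livers the 15 Cyp2c genes made up the largest share of P450 transcripts, with a summed 2910 ± 93.1 TPM (SD, n = 4). The single Cyp2e gene had 2579 ± 623 TPM, the 4 Cyp2a genes 2077 ± 693 TPM and the 9 Cyp3a genes 1973 ± 120 TPM. Cyp2d followed with 884 ± 182 TPM, Cyp2j with 627 ± 86.8 TPM and Cyp2b with 372 ± 32.3 TPM. The Cyp2a mean was 3065 ± 952 TPM in MD, the highest of the subfamilies there, and 1169 ± 716 TPM in MD+CA, below those of Cyp2c, Cyp2e and Cyp3a. The first place in MD rested on replicate 2, without which the mean was 2704 TPM for Cyp2a and 2915 TPM for Cyp2e. In MD+CA without replicate 3 the Cyp2a mean, 1428 TPM, was still below those 3. The Cyp2c sum was 1855 ± 567 TPM in MD and 2506 ± 655 TPM in MD+CA. The 4 CD sums of Cyp2c lay between 2788 and 3014 TPM, above all 4 MD sums, which lay between 1214 and 2492 TPM. For the other 6 subfamilies in the plot of summed TPM, the CD and MD libraries overlapped. These sums are a description and were not tested.

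**Figure D1:**
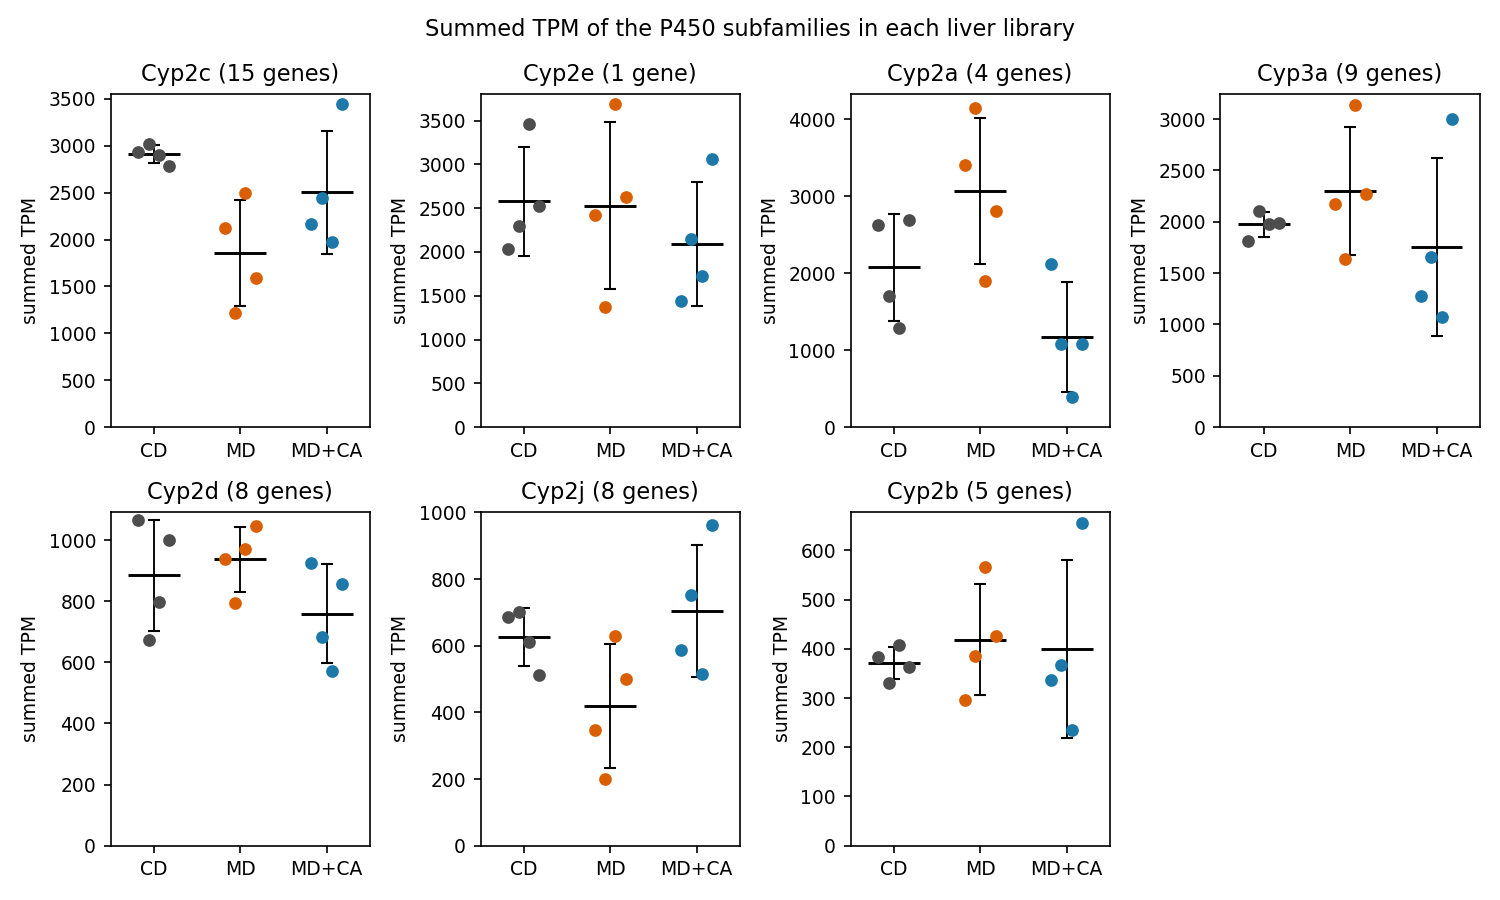
Summed TPM (y axes, each from 0) of the 7 most abundant P450 subfamilies in the CD, MD and MD+CA libraries. Each point is a library, the wide bar is the mean and the whiskers are the SD of 4 libraries. The CD points of Cyp2c sit above every MD point, and 3 of the 4 MD+CA points of Cyp2a sit below every CD point.

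The diet comparison, MD against CD, called none of the 41 tested P450s in the edgeR quasi-likelihood test (adjusted p under 0.05), against 0.088% of all 13631 genes tested. Before adjustment 8 of 41 (19.5%) had a p under 0.05, against 19.9% of all genes, and for 5 of 41 (12.2%) the libraries of CD and MD did not overlap, against 13.1% of all genes. Both shares were close to those of all genes. DESeq2 called 3 P450s in this comparison, Cyp2b13, Cyp2c40 and Cyp2c70, and 4.98% of all genes it tested. The median log2 fold change of the 41 was -0.02, beside 0.04 over all genes.

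Cinnabarinic acid on top of the diet, MD+CA against MD, called 3 of 41 P450s (7.32%), Cyp2a5, Cyp3a41b and Cyp3a59, and all 3 were lower. Of all genes 2.71% were called in this comparison, and 1.64% were called and lower. Before adjustment 13 of 41 (31.7%) had a p under 0.05, against 23.2% of all genes in either direction. Of the 13, 11 were lower, and of the 13631 genes tested 1579 had such a p and were lower. For 7 of 41 (17.1%) the libraries of both groups did not overlap, against 10.2% of all genes. The median log2 fold change was -0.29 over the 41 and near 0 over all genes. Of the 41 values 25 were negative, beside 6852 of the 13631 over all genes. DESeq2 called 8 P450s, against 9.02% of all genes it tested. With MD replicate 2 and MD+CA replicate 3 left out together, 1 of the 3 calls was left, that of Cyp2a5.

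Between MD+CA and CD no P450 was called, against 0.528% of all genes. A p under 0.05 before adjustment was found for 6 of 41 (14.6%), against 10.5% of all genes in either direction. All 6 were lower in MD+CA, and of the 13631 genes tested 596 had such a p and were lower. The groups did not overlap for 1 of 41 (2.44%), Cyp2c40, against 6.4% of all genes. DESeq2 called 3, Cyp2a4, Cyp2a5 and Cyp2c40, and 2.46% of all genes it tested. The median was -0.23 over the 41 and 0.02 over all genes. Every pair of comparisons shares a group of libraries, so a high MD value enters MD against CD as an increase and MD+CA against MD as a decrease.

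**Figure D2:**
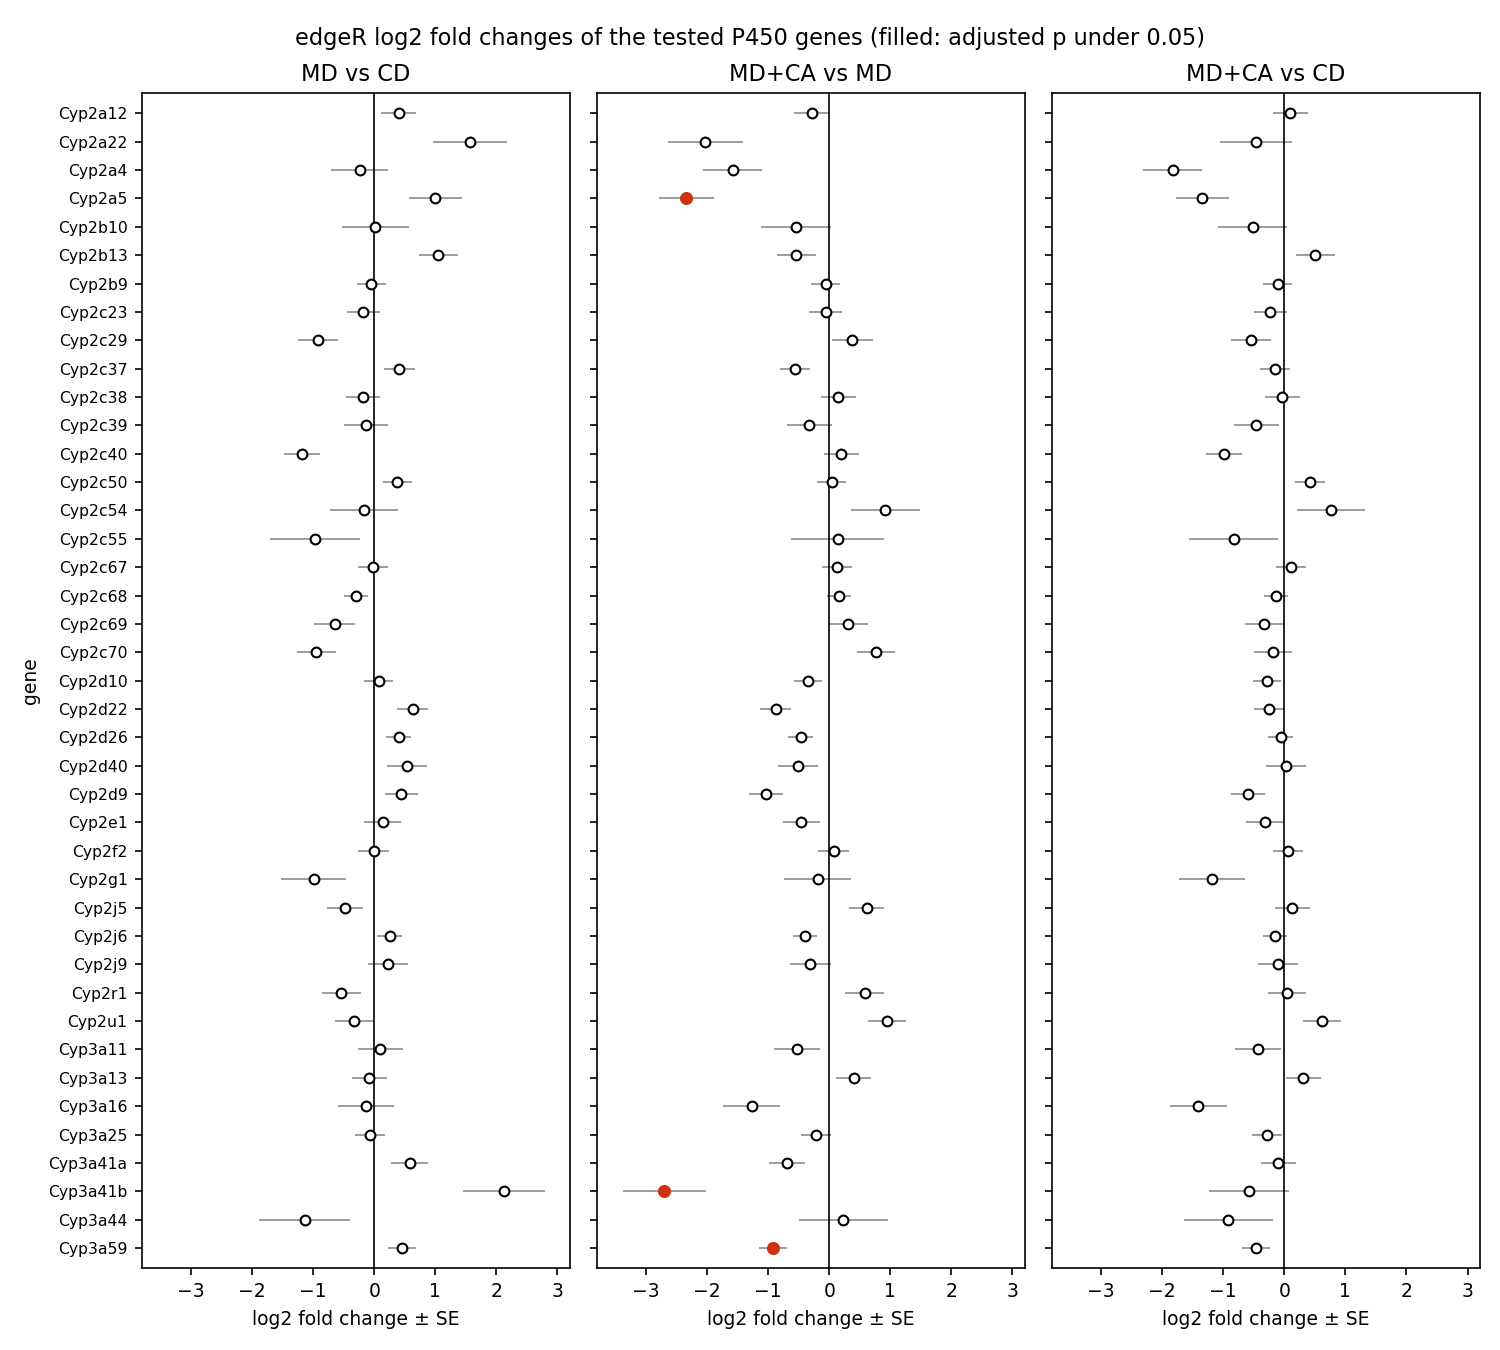
edgeR log2 fold changes (x axes) of the 41 tested P450s (y axis) in the 3 comparisons. Points are estimates, bars are 1 SE, and filled points have an adjusted p under 0.05. The 3 filled points, all in MD+CA vs MD, are Cyp2a5 at -2.34, Cyp3a41b at -2.70 and Cyp3a59 at -0.92.

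Within the Cyp2a subfamily, Cyp2a5 gave the most stable difference. The enzyme hydroxylates coumarin and nicotine and is found mainly in hepatocytes around the central vein. Its 4 MD libraries, from replicate 1 to replicate 4, had 2223, 2235, 1070 and 1765 CPM, and its MD+CA libraries had 583, 379, 93.4 and 382 CPM. All MD libraries were above all MD+CA libraries, and MD+CA replicate 3 was the lowest of the 12. The log2 fold change of MD+CA against MD was -2.34 (SE 0.45, adjusted p = 0.0179). The call was kept in 11 of 12 fits that left out a library, where the log2 fold change ran from -2.67 to -2.03, and was lost without MD+CA replicate 2 (adjusted p = 0.0503). With MD replicate 2 and MD+CA replicate 3 both left out it was -1.91 (adjusted p = 0.0366).

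The CD libraries of Cyp2a5 had 1048, 803, 555 and 1246 CPM, between the other groups and overlapping both. Neither the contrast of MD with CD (log2 fold change 1.0, SE 0.43, adjusted p = 0.217) nor that of MD+CA with CD (-1.34, SE 0.43, adjusted p = 0.203) passed the test.

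Cyp2a4, its near-copy and a female-biased testosterone hydroxylase, had 1034, 773, 554 and 1113 CPM in MD and 623, 168, 94.6 and 274 CPM in MD+CA. MD+CA replicate 1 lay inside the MD range, so the groups overlapped. Its difference did not pass the test (log2 fold change -1.58, SE 0.48, adjusted p = 0.0793), nor did that of MD+CA against CD, -1.83 (SE 0.49, adjusted p = 0.111). The CD libraries had 1184, 829, 533 and 1566 CPM, much like those of MD. When the reads of Cyp2a4 and Cyp2a5 were pooled, an alternative added after the data were seen, the pair fell in MD+CA against MD by 2.05 in log2 units, with an SE of 0.46 and an adjusted p of 0.0305. The call thus held for the pair, whatever the division of reads within it.

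That division also differed between groups. Of the reads of the pair, Cyp2a5 received 47.9 ± 2.88% in CD livers, 67.4 ± 5.4% in MD livers and 56.4 ± 9.69% in MD+CA livers (mean ± SD, n = 4). The CD shares ran from 44.3 to 51% and the MD shares from 61.3 to 74.3%, without overlap. The MD+CA shares ran from 48.3 to 69.4% and overlapped both.

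Cyp2a22 and Cyp2a12 form the other Cyp2a pair, with 97% coding identity. Cyp2a22 had 116, 117, 152 and 110 CPM in CD, 393, 525, 250 and 302 CPM in MD and 209, 66.6, 6.71 and 77.5 CPM in MD+CA. All MD libraries were above all others. Still, neither MD against CD (log2 fold change 1.57, SE 0.60, adjusted p = 0.179) nor MD+CA against MD (-2.03, SE 0.61, adjusted p = 0.0751) passed the test. Cyp2a12 had 757 ± 76.7 CPM in CD, 997 ± 191 CPM in MD and 814 ± 389 CPM in MD+CA (SD, n = 4). Its libraries overlapped between all groups, those of MD+CA ran from 455 to 1347 CPM, and no contrast passed the test. Pooled, Cyp2a12 and Cyp2a22 did not pass in MD+CA against MD (log2 fold change -0.59, SE 0.31, adjusted p = 0.266).

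**Figure D3:**
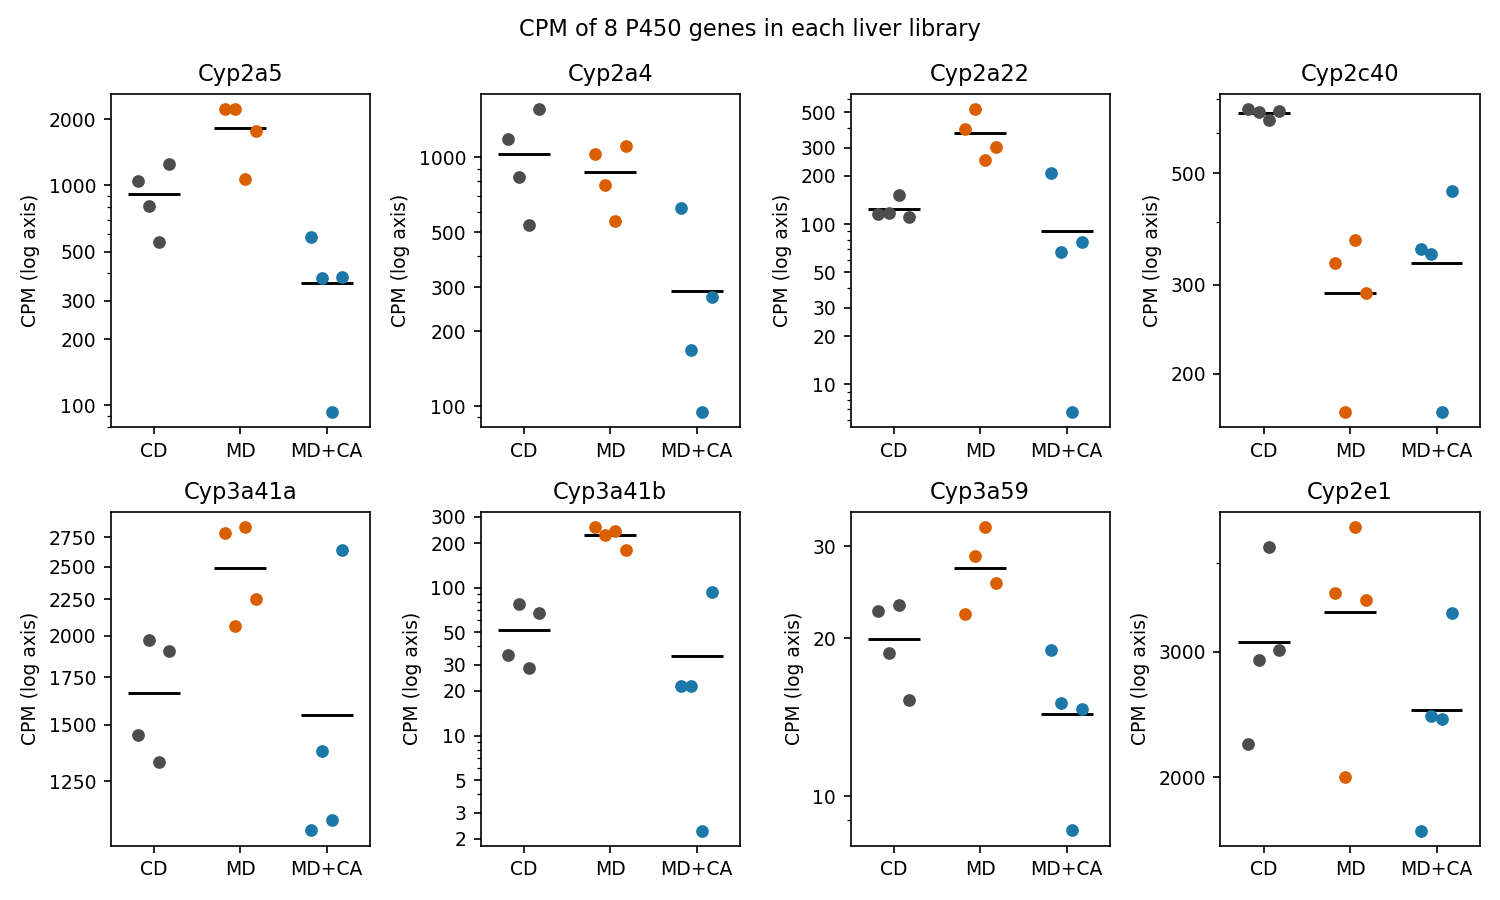
CPM (y axes, log scale) of 8 P450s in the CD, MD and MD+CA libraries. Each point is a library and the bar is the mean of 4. For Cyp2a5, Cyp3a41b and Cyp3a59 every MD+CA point sits below every MD point, whereas for Cyp2e1 the 3 groups overlap.

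In the Cyp3a subfamily 2 genes were called. Each has a near relative that took most reads of the pair, and neither pair passed the test when its reads were pooled. Cyp3a41b, one of a pair of female-biased genes, had 256, 225, 243 and 180 CPM in MD and 21.5, 21.5, 2.28 and 93.5 CPM in MD+CA. The groups did not overlap, and the log2 fold change was -2.70 (SE 0.68, adjusted p = 0.049). In CD it had 34.8, 77.3, 28.6 and 66.9 CPM, below all MD libraries, and MD against CD did not pass (log2 fold change 2.12, SE 0.67, adjusted p = 0.131). The call in MD+CA against MD held in 3 of 12 fits that left out a library, the ones that omitted MD replicate 3 or, in MD+CA, replicate 3 or 4.

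Cyp3a41a, which holds nearly all reads of the pair, had 1449, 1971, 1329 and 1901 CPM in CD, 2786, 2066, 2840 and 2254 CPM in MD and 1066, 1378, 1102 and 2637 CPM in MD+CA. All MD libraries were above all CD libraries, and MD+CA replicate 4 lay inside the MD range. Its log2 fold changes, 0.58 in MD against CD (SE 0.30, adjusted p = 0.285) and -0.69 in MD+CA against MD (SE 0.30, adjusted p = 0.181), did not pass the test. Cyp3a41b took 2.91 ± 0.806% of the reads of the pair in CD livers, 8.38 ± 1.03% in MD livers and 1.79 ± 1.33% in MD+CA livers (mean ± SD, n = 4). Pooled, the pair had a log2 fold change of -0.78 in MD+CA against MD (SE 0.30, adjusted p = 0.142) and of 0.66 in MD against CD (SE 0.30, adjusted p = 0.238). Neither passed the test.

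Cyp3a59 was called at a low level. It had 22.6, 18.8, 23.2 and 15.3 CPM in CD, 22.3, 28.7, 32.6 and 25.5 CPM in MD and 19, 15.1, 8.61 and 14.7 CPM in MD+CA. The MD and MD+CA libraries did not overlap (log2 fold change -0.92, SE 0.23, adjusted p = 0.0488). The call held in 1 of 12 fits that left out a library, the one without MD+CA replicate 1. Pooled with Cyp3a25, its nearest relative at 97.5% coding identity, its log2 fold change was -0.27 (SE 0.25, adjusted p = 0.542). Cyp3a59 took 6.89 ± 1.05% of the reads of that pair in CD livers, 9.61 ± 1.32% in MD livers and 6.33 ± 1.22% in MD+CA livers (mean ± SD, n = 4).

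Of the other Cyp3a genes, Cyp3a11 had 584, 621, 1013 and 544 CPM in CD, 566, 327, 1035 and 1023 CPM in MD and 489, 695, 257 and 602 CPM in MD+CA. The 3 groups overlapped, and no contrast passed the test. Its log2 fold change in MD+CA against MD was -0.53 (SE 0.37, adjusted p = 0.411). Cyp3a16 had 28.7, 34.4, 23.2 and 76.3 CPM in MD+CA against 110, 59.5, 180 and 43.4 CPM in MD, a difference that did not pass (log2 fold change -1.27, SE 0.47, adjusted p = 0.126). Over the 8 tested Cyp3a genes the median log2 fold change was 0.01 in MD against CD, -0.61 in MD+CA against MD and -0.45 in MD+CA against CD.

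The Cyp2c subfamily had 13 tested genes, and no call in any comparison. In MD against CD, 11 of the 13 log2 fold changes were negative, with a median of -0.18, and 3 genes had an unadjusted p under 0.05, Cyp2c40, Cyp2c70 and Cyp2c29, all lower in MD (19.9% of all genes in either direction). In MD+CA against MD, 10 of the 13 were positive, with a median of 0.15. Over all 13631 genes tested, 6307 log2 fold changes were negative in MD against CD and 6779 were positive in MD+CA against MD. Genes such as Cyp2c67, Cyp2c68 and Cyp2c69 share sequence, so the 13 are not independent counts. Cyp2c40, an arachidonic acid hydroxylase with female bias, was the steadiest of all tested P450s in CD, at 671, 660, 636 and 663 CPM. It had 332, 168, 369 and 289 CPM in MD and 353, 345, 168 and 460 CPM in MD+CA. All CD libraries were above the 8 others, with log2 fold changes of -1.18 (SE 0.30, adjusted p = 0.107) for MD and -0.99 (SE 0.30, adjusted p = 0.16) for MD+CA. Neither passed the test. Only 15.5% of its 31-base words were unique.

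Cyp2c70, whose 31-base words were all unique, had 353, 533, 299 and 400 CPM in CD, 223, 145, 313 and 138 CPM in MD and 212, 320, 510 and 357 CPM in MD+CA. One MD library, replicate 3, lay inside the CD range. The log2 fold change was -0.95 in MD against CD (SE 0.32, adjusted p = 0.137) and 0.77 in MD+CA against MD (SE 0.31, adjusted p = 0.159). The phenobarbital-inducible Cyp2c29 had a log2 fold change of -0.92 in MD against CD (SE 0.33, adjusted p = 0.163), with 346 to 597 CPM in CD and at most 381 CPM in MD. Cyp2c68 and Cyp2c69, near-copies of each other, had values of -0.30 (SE 0.20) and -0.65 (SE 0.33) in MD against CD, which did not pass. Cyp2c37 had an unadjusted p under 0.05 in MD+CA against MD only (log2 fold change -0.56, SE 0.25, adjusted p = 0.189).

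**Figure D4:**
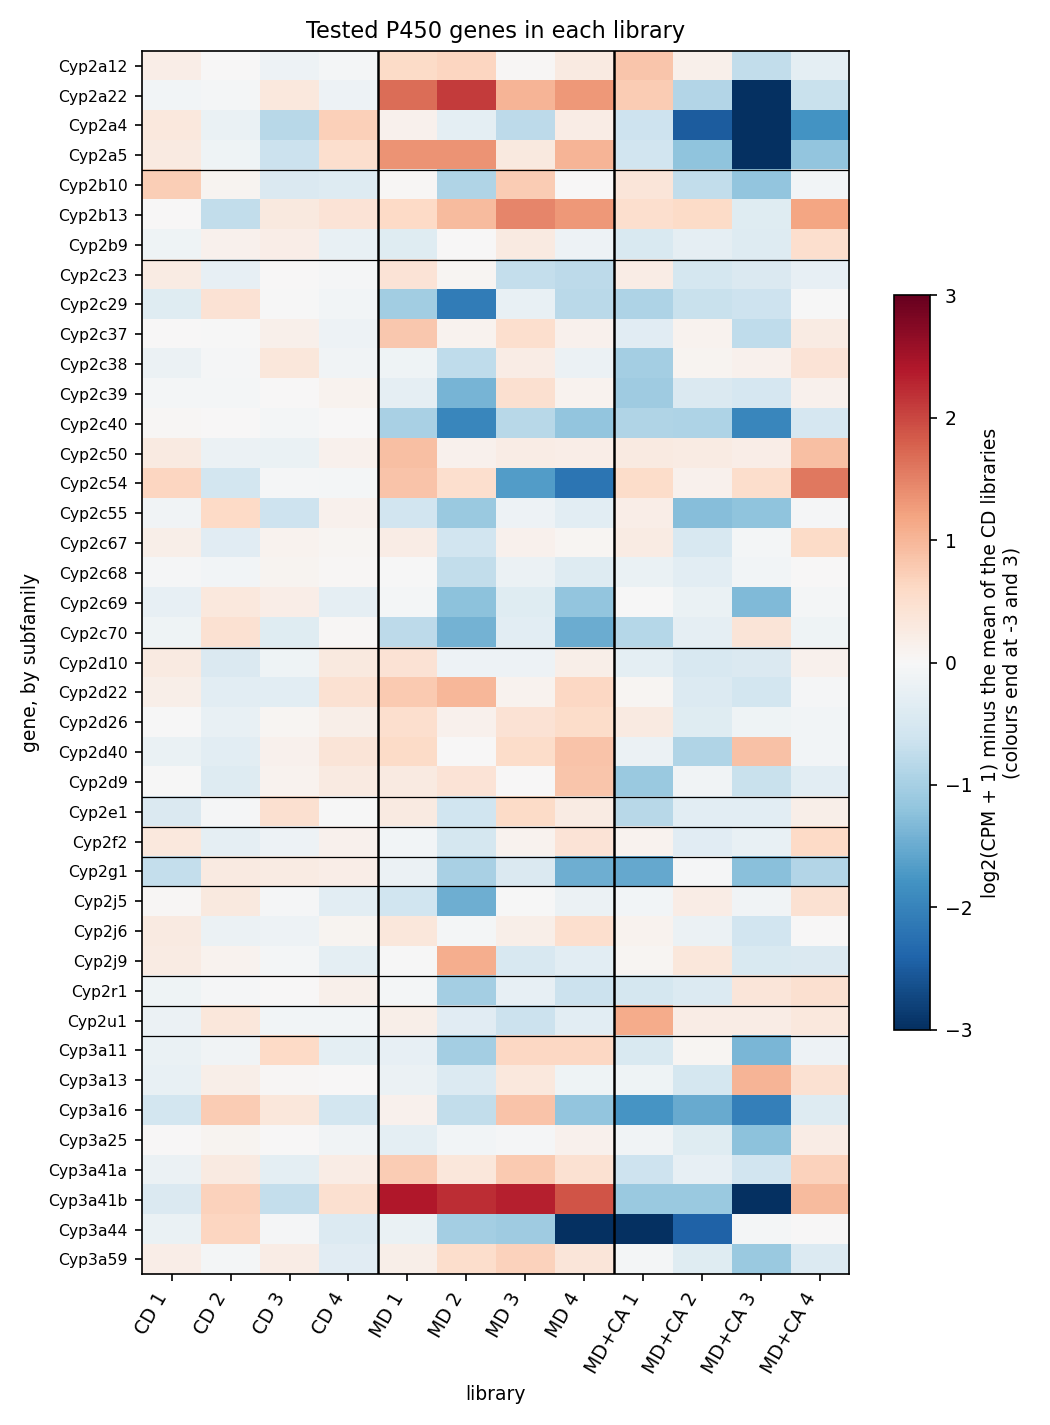
Colours give log2(CPM + 1) of each tested P450 (rows, by subfamily) in each library (columns), less the mean of the 4 CD libraries, with colours ending at -3 and 3. Cyp2a22 and Cyp3a41b are high in all MD columns, and Cyp2a5 in all of them but MD 3. Cyp2c40 is low in all MD and MD+CA columns, and MD+CA 3 holds many of the lowest values.

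The 5 tested Cyp2d genes all had positive log2 fold changes in MD against CD, with a median of 0.44. All had negative ones in MD+CA against MD, with a median of -0.51. Over all 13631 genes, 7324 were positive in MD against CD and 6852 were negative in MD+CA against MD. None of the 5 Cyp2d genes passed the test, and 3 had an unadjusted p under 0.05 in MD+CA against MD. Of all genes 23.2% did. Cyp2d9, a male-biased testosterone hydroxylase that was low here, had 10.4, 11.4, 8.49 and 15.8 CPM in MD and 3.31, 7.69, 4.94 and 6.57 CPM in MD+CA, without overlap (log2 fold change -1.03, SE 0.28, adjusted p = 0.0568). Cyp2d22 had 156, 181, 97.4 and 140 CPM in MD and 94, 68.1, 61.6 and 87.8 CPM in MD+CA, also without overlap (-0.88, SE 0.25, adjusted p = 0.0635). For Cyp2d26, the most abundant of the subfamily, the value was -0.47 (SE 0.20, adjusted p = 0.188).

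Among the 3 tested Cyp2b genes, the female-biased Cyp2b13 had 123, 72.8, 149 and 162 CPM in CD and 185, 236, 334 and 300 CPM in MD, without overlap, and 173, 181, 93.9 and 276 CPM in MD+CA. Its log2 fold change of 1.05 in MD against CD (SE 0.32, adjusted p = 0.126) did not pass the test. Cyp2b9, also female-biased, lay between 261 and 510 CPM over the 12 libraries, and its log2 fold changes were -0.05 (SE 0.24) in MD against CD and -0.06 (SE 0.24) in MD+CA against MD. Cyp2b10, the classical target of CAR, was barely expressed, between 0.506 and 4.81 CPM in the 12 libraries. Its log2 fold change was 0.02 (SE 0.55) in MD against CD and -0.55 (SE 0.57) in MD+CA against MD.

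Cyp2e1 did not differ beyond the spread of its libraries. It had 2225, 2923, 4207 and 3012 CPM in CD, 3623, 2001, 4487 and 3551 CPM in MD and 1683, 2437, 2417 and 3397 CPM in MD+CA, and the 3 groups overlapped. Its log2 fold changes were 0.14 (SE 0.30, adjusted p = 0.814), -0.46 (SE 0.30, adjusted p = 0.37) and -0.32 (SE 0.30, adjusted p = 0.835) in the 3 comparisons.

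Cyp2j5 had 1110, 1327, 1048 and 869 CPM in CD, 716, 392, 1069 and 950 CPM in MD and 1022, 1256, 1003 and 1477 CPM in MD+CA. The groups overlapped, and the log2 fold changes of -0.48 in MD against CD (SE 0.29, adjusted p = 0.357) and 0.61 in MD+CA against MD (SE 0.29, adjusted p = 0.221) did not pass the test. Of the single-gene subfamilies, Cyp2f2, known for activating naphthalene in the lung, was at 96.8 to 213 CPM and even between groups. Cyp2r1, a vitamin D hydroxylase, was at 2.24 to 8.21 CPM. Cyp2g1, an enzyme of the olfactory mucosa, was at 0.551 to 4.46 CPM, with a log2 fold change of -1.18 in MD+CA against CD (SE 0.54, adjusted p = 0.449). Cyp2u1, a fatty acid hydroxylase, had 4.48, 2.85, 2.1 and 2.87 CPM in MD and 9.55, 4.67, 4.68 and 5.01 CPM in MD+CA. It was the only one of the 41 that lay wholly higher in MD+CA than in MD (0.95, SE 0.31, adjusted p = 0.0933).

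The 16 genes not tested were Cyp2b19, Cyp2b23, Cyp2c65, Cyp2c66, Cyp2d11, Cyp2d12, Cyp2d34, Cyp2j7, Cyp2j8, Cyp2j11, Cyp2j12, Cyp2j13, Cyp2s1, Cyp2t4, Cyp2w1 and Cyp3a57. None exceeded 1.01 CPM in any library. For 7 of them, Cyp2b19, Cyp2c66, Cyp2j7, Cyp2j11, Cyp2j12, Cyp2t4 and Cyp2w1, no read was assigned in any library, which allows up to 3 reads, or 0.207 to 0.33 CPM depending on the library, for counting error only.

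Grouped by what they share, the P450s gave few calls, in a comparison where 1.64% of all genes were called and lower. Of 11 female-biased members, 1 fell in MD+CA against MD, Cyp3a41b. Of their log2 fold changes 8 of 11 were negative (6852 of 13631 over all genes), with a median of -0.54. In MD against CD their median was -0.13 with no call. Of 11 members listed as targets of CAR or PXR, 1 fell in MD+CA against MD, Cyp2a5, with a median of -0.06 over the list. Their summed level ran from 3088 to 3299 CPM in CD, from 3911 to 4508 CPM in MD and from 1653 to 3176 CPM in MD+CA. The sums of MD lay above those of both other groups, and Cyp2a5 gave much of the difference. Of 7 pericentral members, 1 fell, again Cyp2a5, with a median of -0.46. None of 7 arachidonic acid epoxygenases passed in any comparison. Of the 7, 1 had an unadjusted p under 0.05, in MD against CD, where 19.9% of all genes did. Their medians were -0.17 in MD against CD, 0.15 in MD+CA against MD and -0.10 in MD+CA against CD. The median over all genes was 0.04, near 0 and 0.02 in the same order.

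Of the genes that serve or regulate P450s, several were lower in MD+CA. Their counts and those of the lists that follow stand against 1.64% of all genes called and lower, and 1.06% called and higher, in MD+CA against MD. Nr1i3, which encodes the receptor CAR, had 277, 268, 477 and 326 CPM in CD, 435, 431, 645 and 693 CPM in MD and 169, 273, 154 and 198 CPM in MD+CA. The MD+CA libraries lay below all MD libraries, and Nr1i3 fell by 1.47 in log2 units (SE 0.27, adjusted p = 0.0171), a call that held in 12 of 12 fits without a library. Against CD its value was -0.76 (SE 0.27, adjusted p = 0.252). Nr1i2, which encodes PXR, did not pass the test (-0.41, SE 0.20, adjusted p = 0.229). Of 23 receptors and transcription factors of P450 genes, 3 fell in MD+CA against MD, Nr1i3 and Cebpb (-2.19) among them, and none rose. The Cebpb call held in 8 of 12 fits without a library and was lost with MD replicate 2 and MD+CA replicate 3 both left out (adjusted p = 0.102). Ahr itself (-0.41, SE 0.25, adjusted p = 0.329), Rxra (-0.26), Ppara (-0.73), Hnf4a (0.39) and Nr1h4 (-0.65) did not pass. Ahr lay between 13.7 and 36.5 CPM in all groups.

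Por, the reductase that all these enzymes draw electrons from, had 359, 392, 367 and 428 CPM in CD, 295, 287, 551 and 525 CPM in MD and 161, 183, 130 and 194 CPM in MD+CA. The MD+CA libraries lay below all 8 others. Por fell by 1.31 against MD (SE 0.25, adjusted p = 0.0179) and by 1.21 against CD (SE 0.25, adjusted p = 0.0445) on the log2 scale. The call against MD held in 12 of 12 fits without a library and that against CD in 3 of 12, the ones that omitted replicate 2 or 3 of MD or replicate 4 of MD+CA. Of 20 tested genes of electron transfer and haem supply, 2 fell in MD+CA against MD, Por and the biliverdin reductase Blvrb (-0.96, adjusted p = 0.0342), and 1 rose, the haem oxygenase Hmox1 (1.34, adjusted p = 0.0409). The Blvrb call held in 5 of 12 fits without a library and that of Hmox1 in 4. Alas1, the first enzyme of haem synthesis, did not pass (-1.10, SE 0.40, adjusted p = 0.122), and neither did Cyb5a (-0.56, SE 0.24, adjusted p = 0.176).

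**Figure D5:**
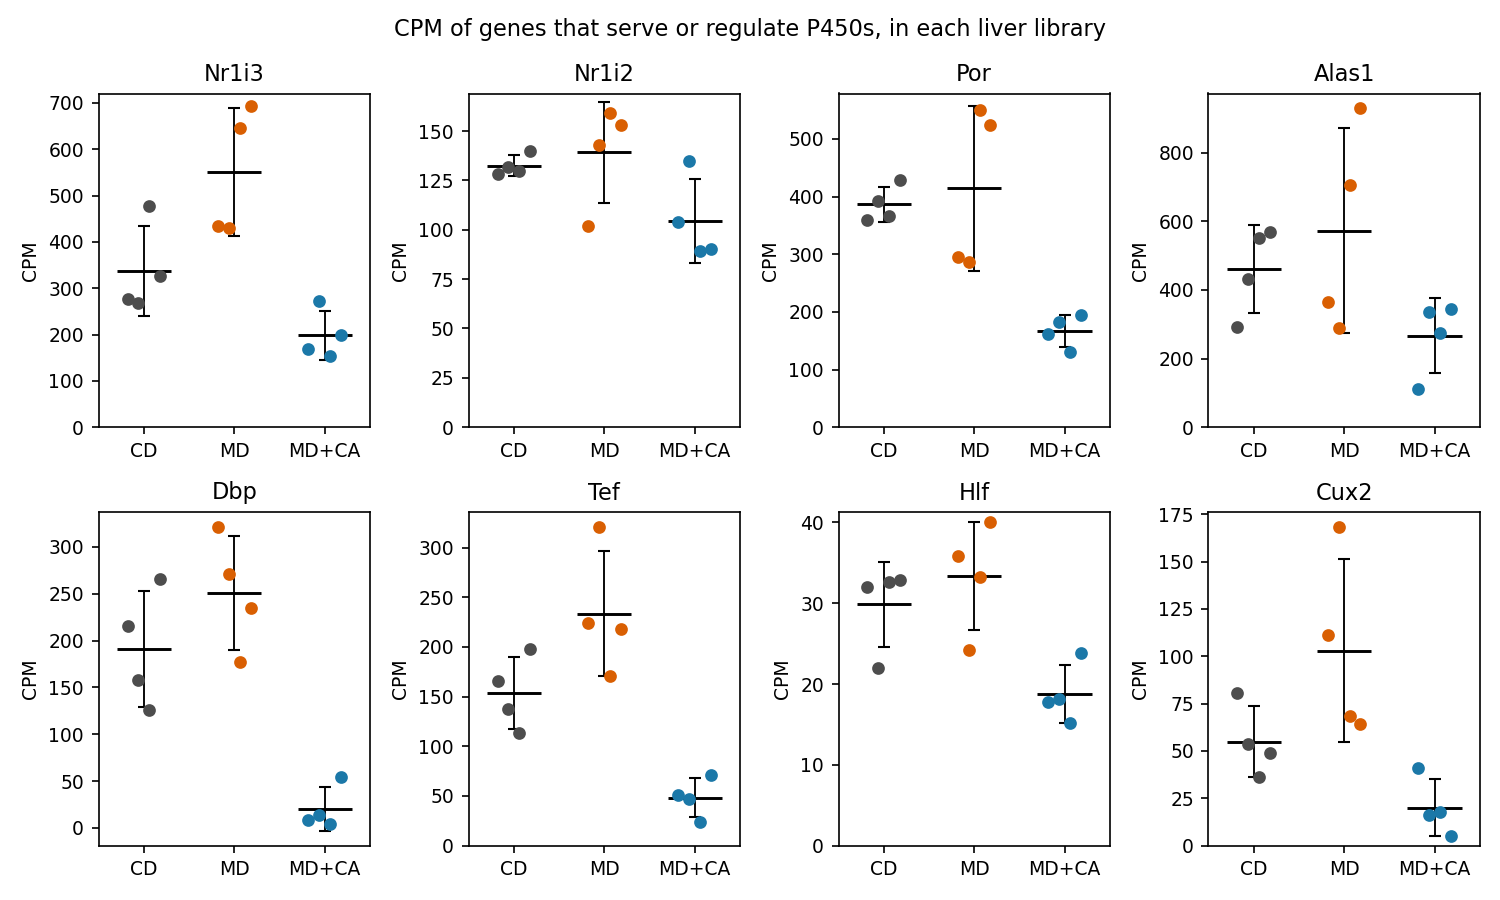
CPM (y axes) of 8 genes that serve or regulate P450s in the CD, MD and MD+CA libraries. Each point is a library, the wide bar is the mean and the whiskers are the SD of 4. The MD+CA points of Nr1i3, Por, Dbp, Tef, Hlf and Cux2 sit below every MD point, and those of Nr1i2 and Alas1 overlap the MD points.

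Of 26 CAR and PXR targets outside the P450s, 3 fell in MD+CA against MD and none rose: Ces2c (-1.49), the transporter Slco1a4 (-1.26) and Gadd45b (-1.58). The list median was -0.32. The calls held in 3, 8 and 2 of 12 fits without a library, in that order. Of 8 tested AhR targets, 1 fell, Nfe2l2 (-0.89), a call that held in 2 of 12 such fits. Cyp1a2, a P450 of family 1 and a classical AhR target, did not pass (-0.66, SE 0.31, adjusted p = 0.212). In MD against CD no gene of these lists, nor of the receptors and the electron transfer genes, passed the test.

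Other genes moved between the groups alongside these P450s. The PAR bZIP factors were lower in MD+CA than in MD: Dbp fell by 3.62 (SE 0.60, adjusted p = 0.0137), Tef by 2.27 (SE 0.32, adjusted p = 0.0035) and Hlf by 0.83 (SE 0.21, adjusted p = 0.0478) on the log2 scale. The Dbp and Tef calls held in 12 of 12 fits without a library and that of Hlf in 4 of 12. Of 18 clock genes, 9 fell and 1, Bmal1 (3.31), rose, the latter in 12 of 12 such fits. Their summed level was 785 to 1193 CPM in CD, 1054 to 1411 CPM in MD and 387 to 615 CPM in MD+CA. Time of collection is not in the labels, and its part in the P450 values was not tested.

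Of 13 growth hormone and sex-dependent factors, 2 fell in MD+CA against MD, Trim24 (-0.89) and Cux2, a female-biased repressor of male genes (-2.36, SE 0.49, adjusted p = 0.023). The Trim24 call held in 6 and the Cux2 call in 8 of 12 fits without a library, and both were lost with MD replicate 2 and MD+CA replicate 3 left out (adjusted p = 0.104 and 0.12). Stat5b (-0.05) and Bcl6 (-0.92) did not pass. The summed female-biased genes outside families 2 and 3 ran from 1967 to 3000 CPM in MD and from 665 to 2435 CPM in MD+CA, with 2 of 14 called, Cux2 and Acot3 (-2.95), both lower. The male-biased ones ran from 316 to 487 and from 331 to 956 CPM, with 2 of 13 called, C6 (1.87) and C8b (1.95), both higher. Without MD replicate 2 neither of these 2 calls held, and C6 was also lost without MD replicate 1, whereas that of Acot3 held in 12 of 12 fits without a library.

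Cell markers also moved. Of 12 Kupffer cell markers 5 rose in MD+CA against MD, beside 1.06% of all genes, and their sum was 188 to 311 CPM in MD and 393 to 775 CPM in MD+CA. None of the 10 hepatocyte markers was called, and their sum ranged from 50088 to 88658 CPM in MD and from 74725 to 101240 CPM in MD+CA. Of 18 pericentral genes outside families 2 and 3, none was called. Of 13 tested immediate early genes, 7 fell, beside 1.64% of all genes, and their sum was 241 to 1897 CPM in MD and 114 to 207 CPM in MD+CA. Mitochondrially encoded genes summed to 52427 to 153848 CPM in MD and 43363 to 70486 CPM in MD+CA, with no call. The part of these in the P450 values was not tested.

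The 300-base promoter stretches of RefSeq were searched on both strands for letters that factors named above are known to bind. Of the 57 genes, 49 matched 52 stretches. The D-box of the PAR bZIP factors, TTATGTAA or TTACGTAA, was in 0 of 52, against 1.06% of all 32851 stretches. The STAT5 motif TTCNNNGAA was in 2 of 52, against 8.3% of all. These 2 were the stretches of Cyp2j11 and Cyp2j12, genes without a read in any library. The nuclear receptor half-site AGGTCA was in 19 of 52, against 16.3% of all. Both stretches printed for Cyp2a5 and Cyp2a4 hold 1 copy. It lies after the RefSeq start, not upstream, by 29 bases in Cyp2a5 and 30 in Cyp2a4. Duplicated genes share promoter sequence, so these are not independent counts, and a match says nothing of binding.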

How the data were processed

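Poly(A)-selected RNA from frozen livers was sequenced, per the labels' protocols. Tools named in the submitters' processing notes are fastp, Salmon 1.10.3 and DESeq2, with the build GRCm39. Neither options nor strandedness, nor an annotation version, is given in the sources used here. The authors deposited 1 table per library with estimated counts of reads per transcript, which are not normalized, per the file headers. The authors' TPM values are scaled for depth and transcript length within each library, per the file headers. Effective lengths, also deposited, entered only the length offset and the fragment length covariate.

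Estimated counts were added up by gene, then rounded, and TPM were added up likewise. Genes were kept by edgeR's filterByExpr (minimum count 10, by group), which left 13631, and libraries were scaled by TMM. All 12 libraries entered 1 quasi-likelihood fit of edgeR 4.0.16, with group means and no covariates (9 residual degrees of freedom, biological coefficient of variation 0.308). P-values were adjusted by the Benjamini-Hochberg method over the 13631 genes. The SE of a log2 fold change was taken as its size over the root of the F statistic.

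The P450 genes and the gene lists were chosen with earlier results of these data known. One result of these lists is not reported here. The text names P450s that passed the test in any comparison, the 12 of highest mean TPM, the most abundant of each subfamily with a tested gene, some of the 17 with an unadjusted p under 0.05, the untested ones, a fixed set of regulators, and list genes where 5 or fewer passed. Cyp2b10 and others outside that rule were picked with their values in view.

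The fit was tested on simulated counts over the 13631 genes, with 50 changed at each fold. In MD+CA vs MD it recovered 34, 88, 100 and 96% of 2, 4, 8 and 16 fold changes, in MD vs CD 36, 86, 100 and 86%, and in MD+CA vs CD 50, 80, 98 and 90%.

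Alternatives were RLE scaling, DESeq2 1.42.0, no low-count filter, a transcript length offset, a replicate block, only the 2 compared groups, a fragment length covariate, protein-coding genes only, leaving out each library and, for subfamily sums, CPM. Pooling genes of at least 95% or 99% coding identity and leaving out the 2 libraries that stood apart were added after the data were seen. No 2 libraries of a group agreed within sampling noise. The genome at hand was of another build, so coordinates are given only for RefSeq promoters (GRCm38.p6), and transcript sequences are those of GENCODE vM21. R 4.3.3, Python 3.11.15, numpy 2.4.6, pandas 2.3.3, Biopython 1.88 and matplotlib 3.10.9 were used.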

Additional observations from a re-analysis of the deposited data

Results flagged for a closer look

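In a screen of 78 groups of 4 libraries for a value far from the other 3 (Dixon's test at its 95% critical value), 5 were found, and chance flags about 1 in 20 groups. Cyp2b9 was at 510 CPM in MD+CA replicate 4, against 261 to 297 CPM in the other MD+CA libraries. Cyp3a11 was at 1013 CPM in CD replicate 3, against 544 to 621 CPM in the rest of CD. Cyp2u1 was high in CD replicate 2 (5.17 CPM, against 3.31 to 3.58 CPM) and in MD+CA replicate 1 (9.55 CPM, against 4.67 to 5.01 CPM). Cyp2g1 was low in CD replicate 1, at 1.76 CPM against 4.17 to 4.46 CPM.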

How the results depend on the processing

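The number of P450s called in MD vs CD, 0, became 3 with DESeq2, 3 with no low-count filter and 2 in a fit of the 2 compared groups. In MD+CA vs MD it moved from 3 to 8 with DESeq2, 8 with no low-count filter and 6 with the replicate block. It moved to 1, Cyp2a5 in each case, with the length offset, in a fit of the 2 compared groups, with the fragment length covariate and with the 2 libraries that stood apart left out, and to 1, the pair Cyp2a4 and Cyp2a5, with genes of 95% coding identity pooled. Leaving out single libraries gave 0 to 5 calls, with 0 without MD+CA replicate 2. In MD+CA vs CD, 0 became 3 with DESeq2, 3 with no low-count filter, 2 with the replicate block and 1 with the fragment length covariate, and 0 to 1 without single libraries (1 without MD+CA replicate 1, Cyp2a4). The cause of these moves was not tested. The replicate block called 0 in MD vs CD. The labels do not say that libraries with the same number are paired. Their deviations from group means had correlations from -0.079 to 0.35, with 4 of 12 under 0.1. Most were above the highest correlation with a library of another number in the compared group. The exceptions were replicate 2 in MD vs CD and in MD+CA vs MD, and replicate 4 in MD+CA vs CD. What the numbers stand for was not tested. RLE scaling, protein-coding genes only and pooling at 99% kept each count within 1.5 times, though not the same genes. In MD+CA vs MD the Cyp3a59 call was lost with RLE scaling, and that of Cyp3a41b with pooling at 99%. With protein-coding genes only, Cyp2d9 was called as well. No log2 fold change of a P450 with an unadjusted p under 0.05 changed sign under any alternative. On the CPM scale the log2 ratios of subfamily sums between groups moved by less than 1 SD, whereas the levels, which then carry transcript length, did not stay in the same order. Pooling by RefSeq protein identity, planned at first, was not run because no protein table was used here, and coding-sequence identity took its place. With 4 libraries a group, 2 fold changes were missed more often than found in the simulated comparisons of MD with either other group. How far the division of reads between near-copies such as Cyp3a41a and Cyp3a41b can be relied on was not tested.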

Other observations

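The spread of the P450s among libraries differed between the groups. Over the 41 tested genes the median within-group coefficient of variation of CPM was 19.3% for CD, 29.4% for MD and 36.5% for MD+CA, with 4 libraries in each. In CD no library was the lowest for more than 11 of the 41 genes. In MD+CA, replicate 3 was the lowest for 19 and replicate 4 the lowest for 0 and the highest for 21. These are descriptions of 4 libraries a group and were not tested. They were made for the P450s only, so the spread is not shown to be particular to them.

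Part of the reads of 2 of these genes were assigned to transcripts that are not annotated as coding. For Cyp3a59 the share on transcripts annotated for nonsense-mediated decay was 30.2 ± 15.9% in CD livers, 48.7 ± 22.5% in MD livers and 28.2 ± 14.2% in MD+CA livers (mean ± SD, n = 4), with single libraries from 11.7 to 67%. For Cyp2a22 the share on transcripts annotated as retaining an intron was 32.6 ± 14.3%, 31.6 ± 10.9% and 21.4 ± 6.64% in the same order. The groups overlapped in both.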
